A study of Homo sapiens with 6 samples.

Results

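The EGF receptor family and its ligands were described here across A549 and BEAS-2B cells exposed to TGF-β1. The 9 members, taken by gene symbol, were the receptors EGFR, ERBB2 and ERBB3, the EGFR ligands AREG, EREG, HBEGF, TGFA and BTC, and NRG1, a ligand of ERBB3 and ERBB4, out of 24462 symbols with a row in the count data. A549 is a line from a lung carcinoma, and BEAS-2B is an immortalized line from bronchial epithelium. Both were labelled wild type and were either left untreated or exposed to TGF-β1 at 1 or 5 ng/mL for 48 h. Each of the 6 conditions had 1 library of 3′ mRNA reads, so no test between conditions was possible and no p-value is given, and each line stands for itself only.

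The 3 receptors are tyrosine kinases of the cell surface that pair with each other once a ligand binds, and they pass the signal on to the RAS-ERK and PI3K pathways. EGFR binds amphiregulin (AREG), epiregulin (EREG), heparin-binding EGF (HBEGF), TGF-α (TGFA) and betacellulin (BTC), whereas ERBB3 binds neuregulin and ERBB2 has no known ligand of its own. The ligands are made as membrane proteins that ADAM proteases cut loose, and in airway and alveolar epithelium they are known for their part in repair after injury.

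Total counts were between 4120624 and 7841350 per library. Counts were scaled for library size, and the ND value is log2 of the scaled count plus 1. A member was called when its fold change (FC) was at least 2 and its ND value was at least 7, which is a scaled count of 127, in at least 1 of the libraries compared. "Rose" and "fell" are used below only for called members. Ratios are of scaled counts, with exact 95% intervals (Clopper-Pearson) that cover counting error only. All 9 members had a single row each. Positions are those of the genome build GRCh38 with the annotation GENCODE v29, while the reads were counted on hg19.

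The libraries were checked against markers of the labelled cells. CDKN2A, known to be deleted in A549, had 0 to 2 counts in A549 and 818 to 2502 in BEAS-2B. Of the 6 epithelial markers, CDH1 (E-cadherin) had 640, 30 and 8 counts at 0, 1 and 5 ng/mL in A549 and at most 2 in BEAS-2B, where EPCAM was at 0 in every library. The summed scaled count of the epithelial list, mostly keratins, was 25337 to 28857 in A549 and 3236 to 4379 in BEAS-2B. This sum hides opposite shifts. KRT7 had scaled counts of 4024, 14155 and 17495 in A549 and 1186, 3337 and 2916 in BEAS-2B. All other markers of the list were lower with TGF-β1 in A549, and KRT8, KRT18 and KRT19 were lower in BEAS-2B. The summed scaled count of the 6 mesenchymal markers was 3468, 7308 and 8527 in A549 and 6198, 36226 and 37262 in BEAS-2B. Most of the BEAS-2B sum with TGF-β1 was COL1A1, with 2398, 27154 and 24485 counts at 0, 1 and 5 ng/mL. The 4 endothelial markers summed to at most 5.04 and the 4 leukocyte markers to at most 60.2, with CD3E at 0 in all libraries. The 4 alveolar type 2 markers summed to at most 8.92, and in A549 the 4 basal airway markers summed to at most 11.6. In BEAS-2B the basal list summed to 276, 3116 and 3786 at 0, 1 and 5 ng/mL, nearly all of it KRT17 with 247, 2768 and 3006 counts, while KRT14 was at 0 in every library. The part of the epithelial, basal and mesenchymal shifts in the results below was not tested, and in these bulk libraries fewer cells with a transcript and less transcript per cell cannot be told apart.

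In A549, TGF-β1 moved the family in both directions. EGFR and NRG1 rose at both doses and HBEGF rose at 5 ng/mL, whereas ERBB3, AREG and EREG fell at both doses. At 1 ng/mL, 6 members reached the ND minimum and 2 rose and 3 fell. Over all entries tested in that comparison, 10.9% rose and 12.6% fell. At 5 ng/mL, 7 members reached the minimum and 3 rose and 3 fell, with 16.1% and 17.1% of all entries tested. In BEAS-2B, 3 members reached the minimum. None was called at 1 ng/mL, where 5.66% of entries rose and 9.13% fell, and HBEGF alone rose at 5 ng/mL, where 7.33% rose and 11.6% fell. No member was called between 1 and 5 ng/mL, a step that called 3.4% of entries in A549 and 0.904% in BEAS-2B. With ND taken as log2(CPM + 1), which sets a higher minimum, EGFR alone was called in A549 at 1 ng/mL, EGFR and NRG1 were called at 5 ng/mL, and 0 members were called in BEAS-2B. At 5 ng/mL, 21.7% of the entries tested then rose and 15.9% fell in A549, and 8.11% rose and 10.2% fell in BEAS-2B. In the first form of ND, the median log2 FC of the members that reached the minimum was −0.77 and 0.00 in A549 and −0.34 at each dose in BEAS-2B, beside 0.09, 0.11, 0.01 and 0.03 over all entries tested.

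**Figure D1:**
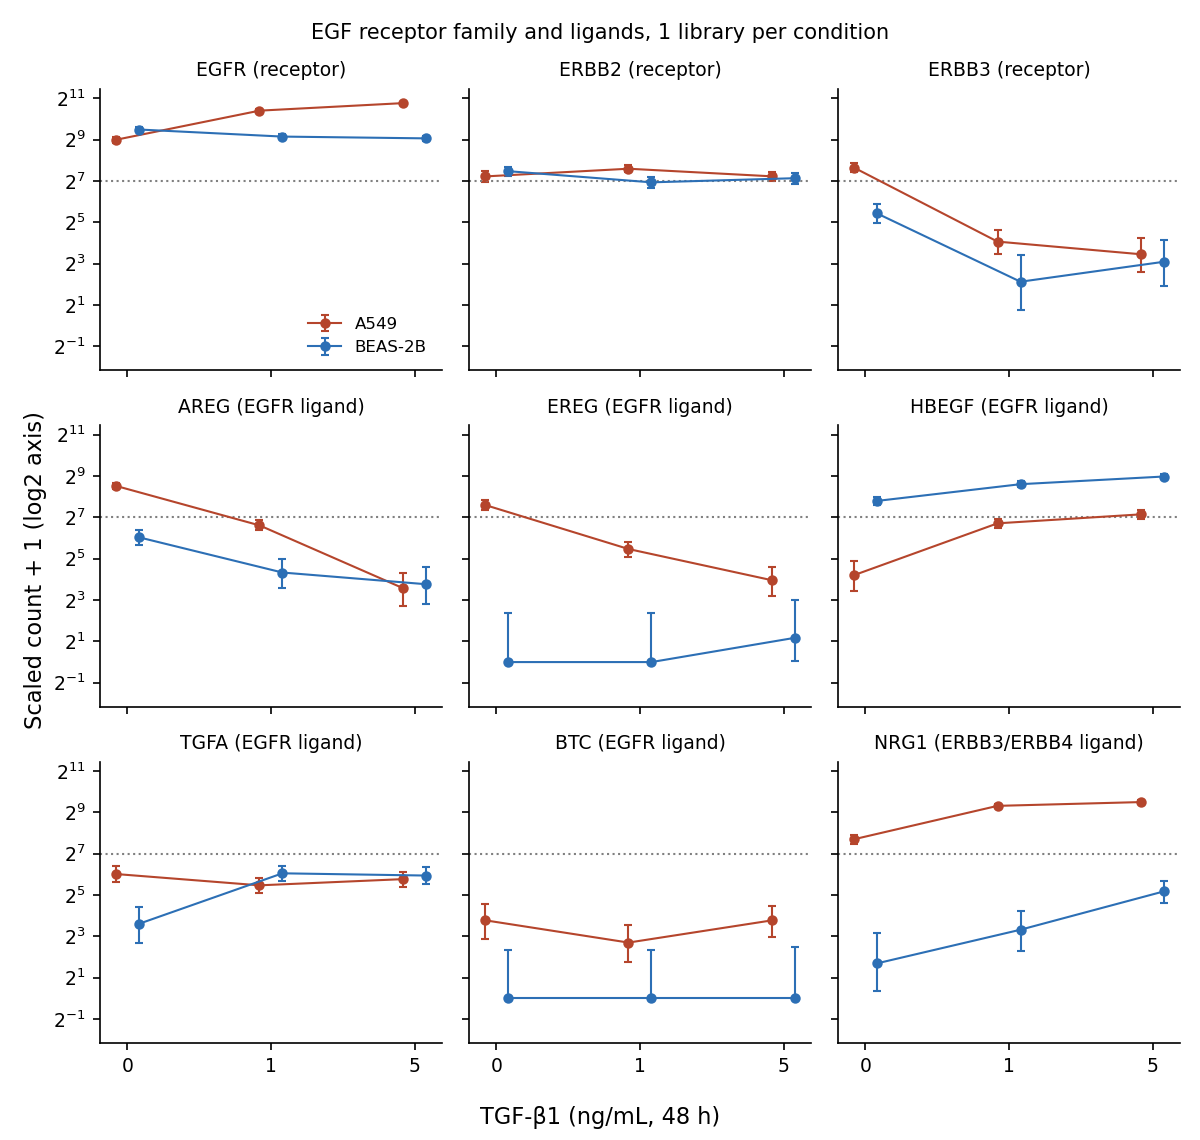
Scaled count plus 1 (log2 axis) of each member by TGF-β1 dose in A549 (red) and BEAS-2B (blue), 1 library per point, with exact 95% Poisson intervals and a dotted line at the ND minimum of 7. EGFR and NRG1 climb in A549 while ERBB3, AREG and EREG drop, and HBEGF is higher with TGF-β1 in both lines.

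The direction of calls over all entries depended on the scaling, so the members were read against it. Among all called entries of A549, 46.5% rose at 1 ng/mL and 48.4% at 5 ng/mL. These shares were 32.2% and 33.8% when counts were scaled by their totals alone, and 34.2% and 38.3% when the trend of log2 FC with transcript GC content was removed. In BEAS-2B they were 38.3% and 38.7%, against 27.3% and 26.9% with totals alone and 36.8% and 35.7% without the GC trend. The median log2 FC of the most GC-rich of 20 bins was 0.75 and 0.84 in A549 and 0.05 and 0.20 in BEAS-2B. The bins that hold the called members had medians between −0.24 and 0.18 in A549, and the members called were the same under both alternatives.

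The receptors differed from each other. EGFR, which lies at chr7:55019021-55211628 on the plus strand, had scaled counts of 509, 1354 and 1744 at 0, 1 and 5 ng/mL in A549 and of 719, 567 and 534 in BEAS-2B. The treated A549 libraries were the highest of the 6 and untreated A549 was the lowest, although untreated A549 and the treated BEAS-2B libraries had overlapping neighbouring intervals. EGFR rose 2.66-fold (2.40 to 2.96) at 1 ng/mL and 3.43-fold (3.09 to 3.81) at 5 ng/mL in A549. In BEAS-2B its ratio was 0.788 (0.700 to 0.887) and 0.742 (0.655 to 0.840), under the 2-fold threshold. The antisense gene EGFR-AS1 had 0 or 1 count in every library.

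The effect on EGFR differed between the lines by more than counting error. The log2 ratio in A549 minus that in BEAS-2B was 1.76 (1.53 to 1.99) at 1 ng/mL and 2.21 (1.97 to 2.44) at 5 ng/mL. Both doses of a line share its untreated library, so the 2 doses are not independent of each other.

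ERBB2, the receptor without a ligand of its own (chr17:39687914-39730426, plus strand), had scaled counts of 148, 192 and 149 in A549 and of 177, 122 and 140 in BEAS-2B. All neighbouring levels in the order of its 6 libraries had overlapping intervals, and no FC reached 2. Its ratio was 1.30 (1.05 to 1.61) and 1.00 (0.791 to 1.27) in A549 and 0.685 (0.532 to 0.880) and 0.788 (0.613 to 1.01) in BEAS-2B. In A549 its log2 FC of 0.37 and 0.00 became 0.07 and −0.39 once the GC trend was removed, and its longest transcript is 57.5% GC. The log2 ratio in A549 minus that in BEAS-2B was 0.92 (0.45 to 1.40) at 1 ng/mL and 0.35 (−0.15 to 0.85) at 5 ng/mL. ERBB2 shares 571 exon bases with MIEN1 on the opposite strand, and whether reads were counted by strand is not given in the sources used here. MIEN1 itself had a ratio of 1.31 (1.14 to 1.52) and 1.57 (1.36 to 1.82) in A549.

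ERBB3, a receptor with little kinase activity that signals through its partners (chr12:56076799-56103505, plus strand), had counts of 173, 23 and 11 in A549 and of 38, 3 and 6 in BEAS-2B. The scaled counts were 200, 15.8 and 9.98 in A549 and 42.4, 3.38 and 7.56 in BEAS-2B. Both untreated libraries stood above all treated libraries, and the treated libraries were not separated from their neighbours in the order. ERBB3 fell 12.7-fold (8.18 to 20.5) and 20.1-fold (10.9 to 41.0) in A549. In BEAS-2B it was under the ND minimum, with scaled counts 12.6-fold (3.98 to 63.6) lower at 1 ng/mL and 5.61-fold (2.35 to 16.2) lower at 5 ng/mL. The log2 difference between the lines was −0.01 (−1.81 to 2.41) and −1.84 (−3.46 to −0.07).

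AREG and EREG are neighbours on chromosome 4, at chr4:74445134-74455009 and chr4:74365143-74388751, both on the plus strand, and their start regions are shown because both fell in A549. The RefSeq windows on GRCh38.p14, chr4:74444886-74445185 for AREG and chr4:74364895-74365194 for EREG, run 5′ to 3′ on the plus strand from 250 bases before the start to 50 after it. Capitals mark matches on either strand to the cAMP response element TGACGTCA, the E-box CAGGTG and the SMAD-type CAGAC. The AP-1 letters TGANTCA were also searched and were in neither window.
AREG: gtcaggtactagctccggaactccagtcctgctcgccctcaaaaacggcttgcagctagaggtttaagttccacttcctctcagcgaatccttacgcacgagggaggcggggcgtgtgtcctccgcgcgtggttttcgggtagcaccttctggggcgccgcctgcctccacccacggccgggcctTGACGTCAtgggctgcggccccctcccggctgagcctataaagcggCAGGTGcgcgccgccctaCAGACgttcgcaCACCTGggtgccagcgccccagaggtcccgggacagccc
EREG: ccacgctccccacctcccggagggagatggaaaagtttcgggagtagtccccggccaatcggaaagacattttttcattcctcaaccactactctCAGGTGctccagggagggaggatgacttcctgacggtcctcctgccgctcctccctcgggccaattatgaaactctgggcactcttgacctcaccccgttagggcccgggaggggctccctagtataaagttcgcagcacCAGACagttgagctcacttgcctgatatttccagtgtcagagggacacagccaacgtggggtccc

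The AREG window held the cAMP response element at −65, E-box letters at −19 and 12, and CAGAC at −1, counted from the start at 1. The EREG window held an E-box at −155 and CAGAC at −15. Of 35116 promoter windows of the same length, 1.85% held the cAMP response element, 20.6% the E-box, 45.3% CAGAC and 7.71% the AP-1 letters. A match is a description of the letters only.

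AREG had counts of 317, 141 and 12 in A549 and of 58, 17 and 10 in BEAS-2B. Its scaled counts were 367, 96.9 and 10.9 in A549 and 64.7, 19.1 and 12.6 in BEAS-2B. Untreated A549 was the highest library, and A549 at 5 ng/mL was the lowest, with an interval overlapping that of BEAS-2B at 5 ng/mL. AREG fell 3.79-fold (3.10 to 4.66) at 1 ng/mL and 33.7-fold (19.0 to 66.0) at 5 ng/mL in A549. From 1 to 5 ng/mL it was 8.90-fold lower (4.94 to 17.6), although both libraries were under the ND minimum. In BEAS-2B, also under the minimum, it was 3.38-fold (1.94 to 6.20) and 5.14-fold (2.60 to 11.3) lower. The log2 difference between the lines was −0.16 (−1.02 to 0.76) at 1 ng/mL and −2.72 (−4.09 to −1.31) at 5 ng/mL. AREGB, a second copy of AREG in hg19, had no row.

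EREG was detected mainly in A549. It had counts of 167, 63 and 16 in A549 and of 0, 0 and 1 in BEAS-2B. EREG fell 4.47-fold (3.33 to 6.07) and 13.3-fold (7.97 to 23.9) in A549, and all A549 libraries stood above all BEAS-2B libraries. Untreated BEAS-2B was at least 57.8-fold lower than untreated A549, taking 3 counts as the limit that a count of 0 allows. No ratio was formed within BEAS-2B.

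HBEGF (chr5:140332843-140346631, minus strand) was the EGFR ligand called in both lines at 5 ng/mL, and its start region is shown beside those of AREG and EREG for that reason. The RefSeq window on GRCh38.p14 is chr5:140346554-140346853, printed 5′ to 3′ on the minus strand with the same capitals. It held E-box letters at −248 and no match to the other motifs.
HBEGF: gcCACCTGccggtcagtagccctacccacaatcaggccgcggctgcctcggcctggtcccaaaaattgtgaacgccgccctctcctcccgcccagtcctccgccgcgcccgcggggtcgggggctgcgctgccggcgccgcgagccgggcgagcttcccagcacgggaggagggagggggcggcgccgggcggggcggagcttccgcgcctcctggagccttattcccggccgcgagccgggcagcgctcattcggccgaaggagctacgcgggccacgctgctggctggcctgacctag

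HBEGF had counts of 15, 151 and 155 in A549 and of 198, 345 and 399 in BEAS-2B. Its scaled counts were 17.4, 104 and 141 in A549 and 221, 388 and 503 in BEAS-2B. Every BEAS-2B library stood above every A549 library, and the intervals of A549 at 1 and 5 ng/mL overlapped. HBEGF rose 8.09-fold (4.76 to 14.8) at 5 ng/mL in A549, where the level of 141 was just over the minimum of 127. At 1 ng/mL it was 5.97-fold (3.51 to 10.9) higher but under the minimum. In BEAS-2B it rose 2.28-fold (1.91 to 2.71) at 5 ng/mL, and at 1 ng/mL its ratio was 1.76 (1.47 to 2.10). The A549 log2 ratio exceeded that of BEAS-2B by 1.76 (0.95 to 2.67) at 1 ng/mL and by 1.83 (1.02 to 2.74) at 5 ng/mL.

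TGFA, the ligand TGF-α, lies at chr2:70447280-70554193 on the minus strand and was under the ND minimum in every library. Its counts were 55, 63 and 59 in A549 and 10, 58 and 48 in BEAS-2B, and untreated BEAS-2B was the lowest library and was apart from the other 5. The ratio was 0.679 (0.466 to 0.994) and 0.840 (0.572 to 1.24) in A549 and 5.85 (2.97 to 12.8) and 5.42 (2.71 to 12.0) in BEAS-2B. The log2 difference, A549 minus BEAS-2B, was −3.11 (−4.36 to −1.98) and −2.69 (−3.97 to −1.54). BTC, at chr4:74744759-74794686 on the minus strand, had 11, 8 and 14 counts in A549 and 0 in all BEAS-2B libraries, and a change in it was not detectable at this depth.

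**Figure D2:**
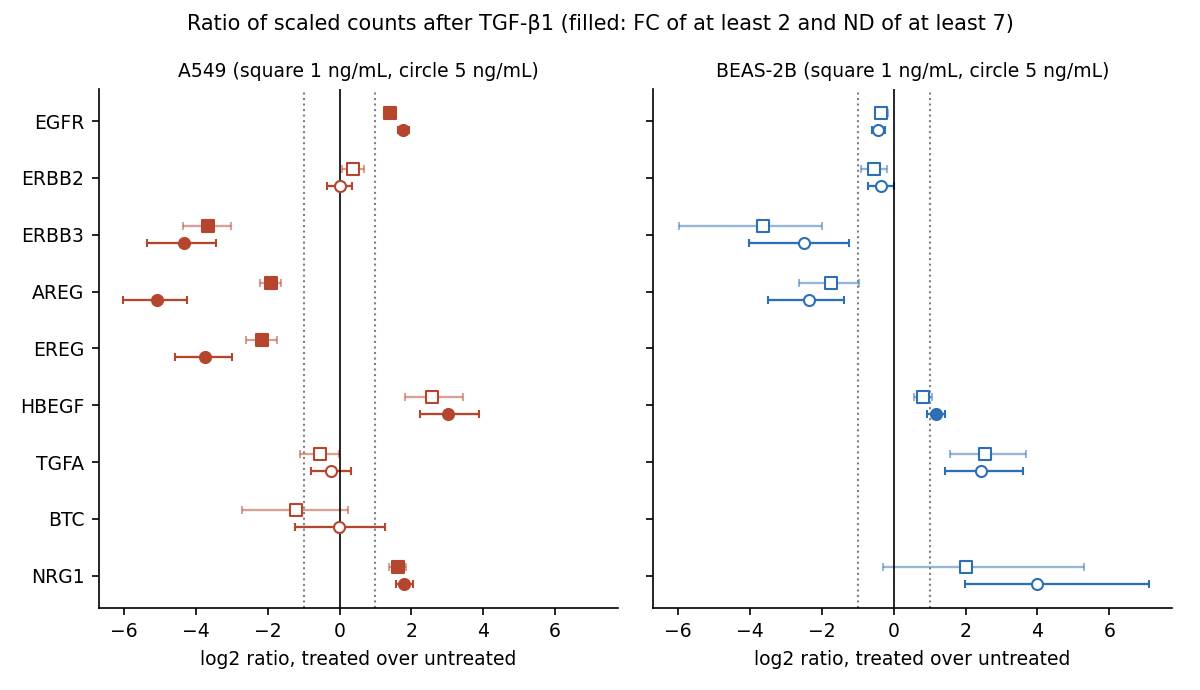
Ratio of scaled counts, treated over untreated (log2 axis values), for each member in A549 (left) and BEAS-2B (right) at 1 ng/mL (squares) and 5 ng/mL (circles), with exact 95% counting intervals. Filled symbols were called, dotted lines mark a 2-fold ratio, and EREG and BTC have no ratio in BEAS-2B, where the untreated count was 0.

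Because the EGFR ligands moved in opposite directions, the make-up of their reads changed. In a 3′ library, reads come from near the poly(A) end, so counts were not divided by transcript length. In A549, AREG held 56.1% (51.9 to 60.2) of the reads of the 5 EGFR ligands without TGF-β1, 33.1% (28.6 to 37.8) at 1 ng/mL and 4.69% (2.45 to 8.04) at 5 ng/mL. HBEGF went from 2.65% (1.49 to 4.34) to 35.4% (30.9 to 40.2) and 60.5% (54.3 to 66.6). In BEAS-2B, HBEGF held most of the reads already without TGF-β1, at 74.4% (68.8 to 79.6), then 82.1% (78.1 to 85.7) and 87.1% (83.7 to 90.0). AREG there went from 21.8% (17.0 to 27.3) to 4.05% (2.38 to 6.40) and 2.18% (1.05 to 3.98). TGFA took 9.73%, 14.8% and 23.0% in A549 and 3.76%, 13.8% and 10.5% in BEAS-2B.

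The summed level of the 5 EGFR ligands was lower with TGF-β1 in A549 and higher in BEAS-2B. The summed scaled count was 655 (602 to 711), 293 (266 to 322) and 232 (205 to 263) at 0, 1 and 5 ng/mL in A549. It was 297 (262 to 335), 473 (428 to 520) and 577 (525 to 632) in BEAS-2B. Without TGF-β1 the sum in A549 was the higher, and at both doses the sum in BEAS-2B was the higher, with intervals that did not overlap.

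**Figure D3:**
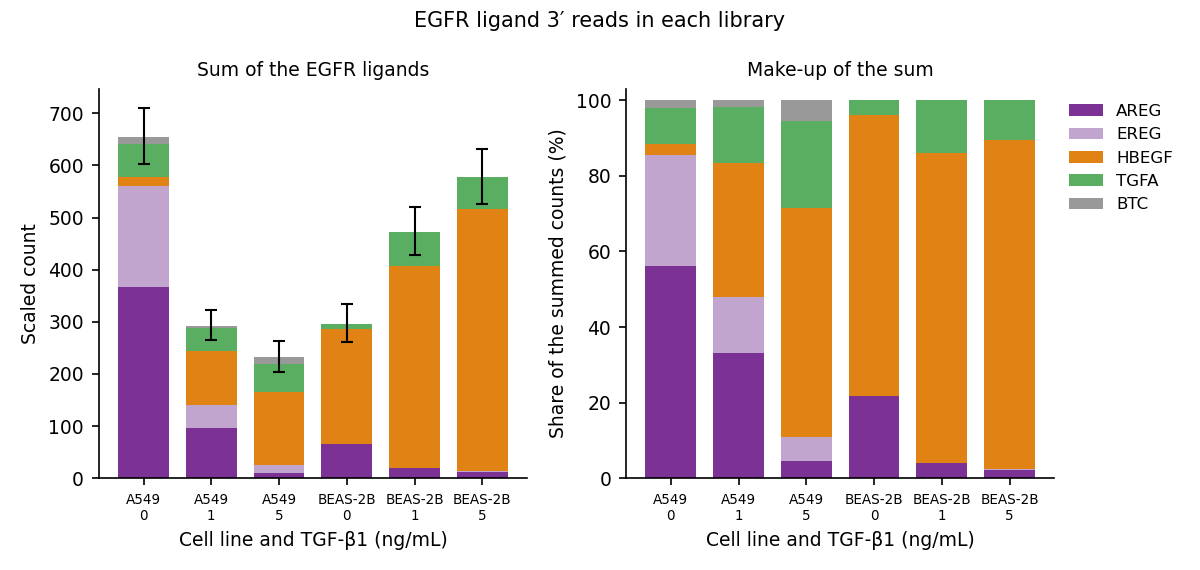
Summed scaled count of the 5 EGFR ligands in each library with its exact 95% Poisson interval (left), and the share of each ligand in that sum in percent (right), by cell line and TGF-β1 dose. HBEGF (orange) goes from 2.65% to 60.5% in A549 and from 74.4% to 87.1% in BEAS-2B as AREG (dark purple) shrinks.

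NRG1, which encodes neuregulin, the ligand of ERBB3, had counts of 178, 924 and 795 in A549 and of 2, 8 and 28 in BEAS-2B. Its scaled counts were 206, 635 and 721 in A549 and 2.23, 9.0 and 35.3 in BEAS-2B. All A549 libraries stood above all BEAS-2B libraries, and the levels of A549 at 1 and 5 ng/mL overlapped in their intervals. NRG1 rose 3.08-fold (2.62 to 3.63) and 3.50-fold (2.97 to 4.14) in A549. ERBB3 fell in that line and, under the minimum, was lower in BEAS-2B as well. In BEAS-2B NRG1 was under the minimum, and its ratio was 4.04 (0.805 to 39.0) at 1 ng/mL and 15.8 (3.99 to 137) at 5 ng/mL, both from 2 counts without TGF-β1. The log2 difference of NRG1, A549 minus BEAS-2B, was −0.39 (−3.67 to 1.95) and −2.18 (−5.30 to −0.17).

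The untreated lines already differed in the family. In untreated BEAS-2B against untreated A549, 7 members reached the minimum and 5 of them were called, where 37% of all entries tested were called. HBEGF was 12.7-fold (7.52 to 23.1) higher in BEAS-2B. ERBB3 was 4.73-fold (3.31 to 6.91), AREG 5.68-fold (4.28 to 7.65) and NRG1 92.4-fold (25.2 to 769) lower in BEAS-2B, and EREG was lower as given above. EGFR was 1.41-fold (1.25 to 1.60) higher and ERBB2 1.20-fold (0.942 to 1.52) higher in BEAS-2B, neither reaching 2-fold.

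The other genes of the pathway were taken from 7 lists of 69 genes, all with a row. In A549, 36 rows reached the minimum at 1 ng/mL, of which 5 rose and 7 fell, and 39 reached it at 5 ng/mL, of which 11 rose and 8 fell. These were 13.9% up and 19.4% down at 1 ng/mL and 28.2% up and 20.5% down at 5 ng/mL, beside 10.9%, 12.6%, 16.1% and 17.1% of all entries tested. In BEAS-2B, 32 and 31 reached it, of which 5 and 6 rose and 2 and 3 fell, that is 15.6% and 19.4% up and 6.25% and 9.68% down, beside 5.66% and 7.33% up and 9.13% and 11.6% down over all entries. With the GC trend removed, the counts at 5 ng/mL were 5 up and 7 down in A549, where 11.5% and 18.5% of all entries were then called, and 6 up and 3 down in BEAS-2B, where 6.76% and 12.1% were. The remaining receptor and ligands, ERBB4, EGF, EPGN, NRG2, NRG3 and NRG4, did not reach the minimum in any library, and the most abundant of them, NRG2, had 21 counts in untreated A549.

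Among 11 genes for the shedding of ligands, 4 of 9 that reached the minimum rose in A549 at 5 ng/mL and none fell. Over all entries tested there, 16.1% rose and 17.1% fell. The membrane protease ADAM19 rose 18.6-fold (14.5 to 24.3) in A549 and 3.73-fold (3.13 to 4.45) in BEAS-2B. TIMP3, an inhibitor of metalloproteases, rose 39.4-fold (13.2 to 193) in A549 from 3 counts. RHBDF1 and RHBDF2, the inactive rhomboids that carry ADAM17 to the cell surface, rose 2.59-fold and 2.11-fold in A549, but of the 4 only ADAM19 and TIMP3 were called with the GC trend removed. ADAM12, a protease known to cut HBEGF, rose 3.35-fold (3.06 to 3.68) in BEAS-2B, while in A549 its ratio was 0.554 (0.371 to 0.821) under the minimum. Over the genes here that reached the minimum, 9 in each line, the median log2 FC was 0.71 in A549 and −0.16 in BEAS-2B. The genes differ, with TIMP3 in A549 only and ADAM12 in BEAS-2B only. The A549 median is the value of FRMD8, whose longest transcript is 61.3% GC, and the GC trend was not removed from these medians.

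Among 9 adaptors and docking proteins, GRB7 fell 2.14-fold (1.74 to 2.65) and PLCG1 rose 2.24-fold (1.64 to 3.09) in A549 at 5 ng/mL, and none was called in BEAS-2B. Among 14 receptor inhibitors and turnover genes, SH3KBP1, an adaptor of receptor endocytosis, rose 4.56-fold (4.17 to 4.98) in A549 and 4.86-fold (4.18 to 5.66) in BEAS-2B. ERRFI1, a feedback inhibitor of EGFR, fell 2.02-fold (1.60 to 2.57) and TNK2 rose 3.05-fold (2.62 to 3.56) in A549. With the GC trend removed, PLCG1 and ERRFI1 were no longer called. Under the minimum in BEAS-2B at 5 ng/mL, GRB7 was 3.81-fold (1.88 to 8.50) lower and ERRFI1 2.47-fold (1.58 to 3.95) lower. PLCG1 and TNK2, not called there, had ratios of 1.18 (0.966 to 1.45) and 1.41 (1.24 to 1.60).

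Of 9 genes of the RAS-ERK core, 7 reached the minimum in A549 at 5 ng/mL, of which 3 rose and 2 fell. Over all entries tested there, 16.1% rose and 17.1% fell. NRAS fell 5.70-fold and MAP2K1 5.75-fold, whereas their paralogs HRAS and MAP2K2 and the kinase gene MAPK3 rose 2.17-fold, 2.65-fold and 2.99-fold. The longest transcripts of HRAS, MAP2K2 and MAPK3 are 65.8%, 60.9% and 61.4% GC, and those of NRAS and MAP2K1 are 38.4% and 50.4%. With the GC trend removed, none of the list rose in A549 and NRAS and MAP2K1 remained called. In BEAS-2B at 5 ng/mL, 5 reached the minimum and none was called, where 7.33% of all entries tested rose and 11.6% fell. Under the minimum there, MAP2K1 was 3.86-fold (2.48 to 6.23) lower and NRAS 1.30-fold (0.893 to 1.91) lower.

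Of the 10 ERK feedback inhibitors, 4 reached the minimum in A549 at 5 ng/mL and 3 fell, where 17.1% of all entries tested fell. The 3 were the ERK phosphatases DUSP6, which fell 8.39-fold (5.62 to 13.0), DUSP5, which fell 3.61-fold (2.77 to 4.76), and DUSP4, which fell 2.36-fold (2.11 to 2.64). In BEAS-2B, 2 reached it and DUSP4 fell 2.23-fold (1.85 to 2.70), where 11.6% of all entries tested fell. The median log2 FC was −1.54 over those 4 genes in A549 and −0.21 over DUSP4 and SPRED1 in BEAS-2B. Under the minimum in BEAS-2B, DUSP5 was 3.39-fold (1.96 to 6.16), DUSP6 2.82-fold (1.58 to 5.30) and DUSP7 3.34-fold (1.78 to 6.71) lower. The list did not move as a set in either line. In A549, SPRED1, not called, had a ratio of 1.29 (0.988 to 1.69). Under the minimum there, SPRY4 was 1.80-fold (1.04 to 3.21) higher and SPRED2 3.66-fold (2.22 to 6.24) lower. SPRY1 went from 22 counts to 0, and SPRY2, SPRED3 and DUSP7 had intervals that include no change. In BEAS-2B, SPRY4 was 3.39-fold (1.03 to 14.4) higher, from 4 counts, and SPRED1, not called, had a ratio of 1.67 (1.28 to 2.17). SPRY1, SPRY2, SPRED2 and SPRED3, under the minimum, had intervals that include no change.

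The other genes that ERK signalling is known to drive did not move together. IER3, an early response gene, rose 9.66-fold (9.28 to 10.1) in A549 and 3.29-fold (3.19 to 3.39) in BEAS-2B, with all its counts on 1 of its 6 rows. EPHA2, a receptor kinase gene, fell 5.97-fold (4.53 to 7.99) in A549. In BEAS-2B, CCND1 (cyclin D1) rose 2.12-fold and ETV5 2.21-fold, while PHLDA1 fell 5.25-fold (4.37 to 6.35) and FOSL1 2.66-fold (1.91 to 3.75).

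**Figure D4:**
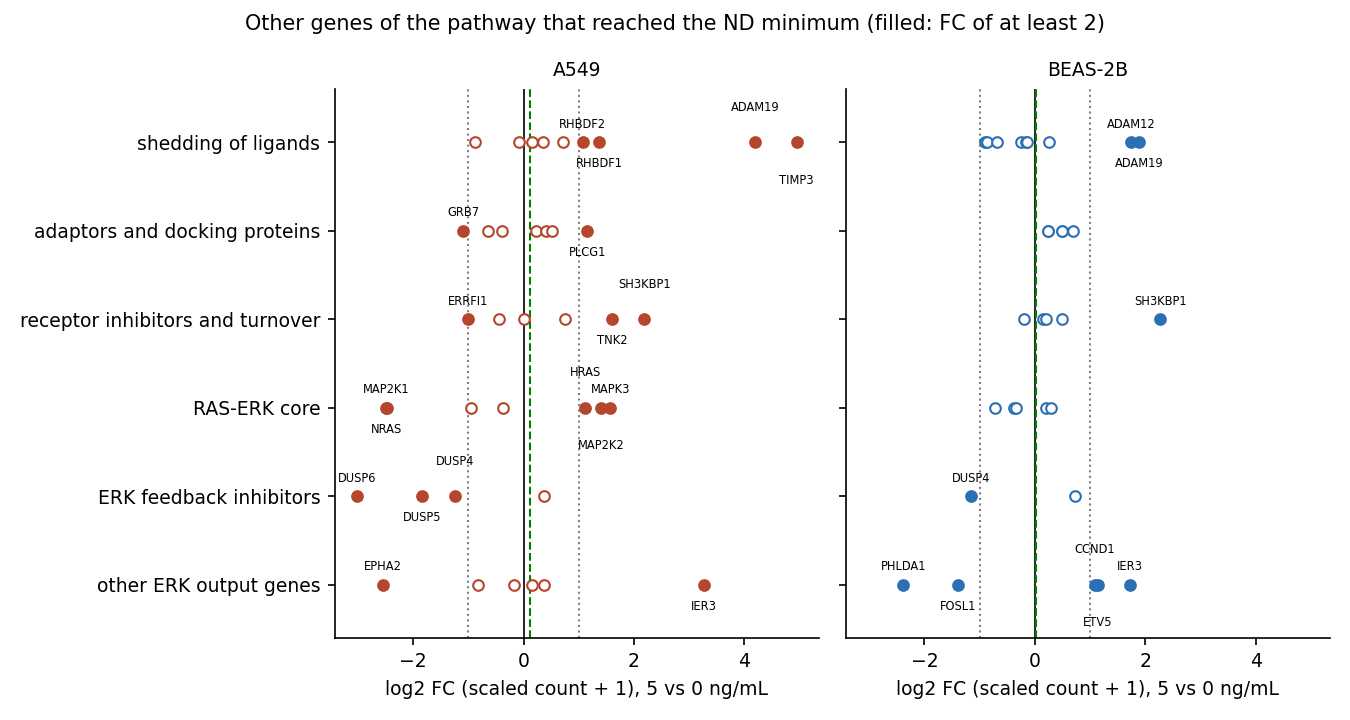
Log2 FC at 5 against 0 ng/mL of the listed pathway genes that reached the ND minimum in A549 (left) and BEAS-2B (right), 1 point per gene, filled where FC was at least 2. The green dashed line is the median of all entries tested (0.11 and 0.03) and the dotted lines mark a 2-fold change, with DUSP4, DUSP5 and DUSP6 all to the left in A549.

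For each called member, the 3 entries with the closest pattern over the 6 libraries were found among 8159 entries, by the root mean square (RMS) difference of ND after centring each entry. For EGFR these were RNPEPL1, LARP6 and MYO1C (RMS 0.147, 0.175 and 0.190). For HBEGF they were PTPRE, ARID5A and FGF11 (RMS 0.261, 0.264 and 0.269), and for NRG1 they were DPYSL4, KRT81 and MAML3 (RMS 0.461, 0.482 and 0.576).

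For ERBB3 the closest were CSTB, PLS1 and EDEM2 (RMS 0.393, 0.399 and 0.457), and for EREG they were PAQR5, FOXQ1 and AGPAT9 (RMS 0.468, 0.519 and 0.526). For AREG they were the chemokine gene CXCL3, the actin-binding profilin gene PFN1 and GNAI1 (RMS 0.489, 0.520 and 0.524). PFN1 had scaled counts of 2044, 459 and 83.5 in A549 and of 955, 176 and 94.5 in BEAS-2B.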

How the data were processed

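Total RNA of A549 and BEAS-2B cells was made into QuantSeq 3′ mRNA libraries, and the authors deposited raw, unscaled read counts for 25737 entries named by gene symbol, 1 table for each of the 6 libraries. The submitters' processing notes name Bowtie2, bedtools and the build hg19, and the methods name ExDEGA, while settings, annotation and strand are not given in the sources used here. Samples were grouped by the labelled cell line and dose. Counts were divided by TMM effective library sizes (edgeR 4.0.16, R 4.3.3) and multiplied by the mean effective size. FC was computed with a pseudocount of 1, and ratios without it. The threshold values on FC and ND were those of the study. The formula of ND is not given in the sources used here and was set as above. At 5 ng/mL this form called 1146 entries up and 1220 down in A549, and 494 up and 783 down in BEAS-2B. With log2(CPM + 1) as ND, these were 420 and 308, and 158 and 199. The numbers of changed genes given by the study are nearer to those of log2(CPM + 1). The calls made here may therefore include genes that the study's criteria leave out. Intervals were Clopper-Pearson (scipy 1.17.1), combined for differences between lines by the square-and-add method, and PCR reads without molecular identifiers make them cover counting error only. GC content was taken from the longest GENCODE v29 transcript of each symbol. The members and lists were chosen with earlier results of these data known. From the lists, 1 gene is not reported here. All 9 members were named, and from the lists of pathway genes those called at 5 ng/mL, lists of 8 or fewer genes in full, and the 3 closest entries per called member. ADAM12 in A549, FRMD8, MIEN1, EGFR-AS1 and the ERK feedback inhibitors that were not called were named besides. RefSeq promoter windows were held for 7 of the 9 members. The calculation was tested on simulated counts with Poisson error only, so that check does not cover variation between replicates. Alternatives were other scalings, thresholds, pseudocounts, row handling, thinning and GC.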

Additional observations from a re-analysis of the deposited data

Results flagged for a closer look

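For 3 members both treated A549 libraries lay on one side of their untreated library and both treated BEAS-2B libraries on the other. At 5 ng/mL in A549 the interval of the ratio included no change for TGFA, 0.840 (0.572 to 1.24), and ERBB2, 1.00 (0.791 to 1.27). The ratio of ERBB2 in BEAS-2B at 5 ng/mL was 0.788 (0.613 to 1.01). In A549 at that dose its log2 FC was -0.39 without the GC trend. For EGFR the log2 ratio at 5 ng/mL in A549 minus that in BEAS-2B was 2.21. For TGFA, under the ND minimum in every library, it was -2.69. For ERBB2 it was 0.35, with an interval from -0.15 to 0.85 that includes 0, and at 1 ng/mL it was 0.92, from 0.45 to 1.40. With 1 library per condition these differences were not tested between replicates, and the intervals cover counting error only.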

How the results depend on the processing

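Each condition had 1 library, so leaving out a replicate was not possible, and depth limits TGFA, BTC and, in BEAS-2B, ERBB3, AREG, EREG and NRG1. No paired analysis was possible because no condition had a second library. Of 693 log2 FC values of members under 11 alternatives that can move them, 685 stayed within the main value's counting interval or had none, and 8 left it. No called value changed sign. Among values not called, 8 changed sign, 5 of BTC and 3 of ERBB2, where untreated BEAS-2B against A549 went to -0.14 without the GC trend. The removal of the GC trend was chosen after seeing the data. Scaling by total counts shifted the median log2 FC of all entries by -0.19 and -0.25 in A549 and by -0.14 and -0.15 in BEAS-2B. The number of members called depended on the ND minimum. With the minimum required in both libraries it was 2 in A549 at 1 ng/mL, 2 at 5 ng/mL and 0 between the untreated lines. The shares of all entries tested called up and down were then 7.32% and 6.73%, 12.8% and 8.80%, and 13.1% and 9.54%. With an ND minimum of 8 the number of members was 3, 3 and 1. The shares of entries were 11.1% and 11.6%, 17.8% and 16.0%, and 20.1% and 17.1%. With log2(CPM + 1) in place of ND the number of members was 1, 2 and 0, and 0 in BEAS-2B at 5 ng/mL. The shares there were 12.5% and 11.6%, 21.7% and 15.9%, 21.3% and 17.5%, and 8.11% and 10.2%. With an ND minimum of 6, 2 members were called in BEAS-2B at 1 ng/mL and 2 at 5 ng/mL. In A549 from 1 to 5 ng/mL, 1 member was called. The shares were 6.21% and 10.8%, 7.79% and 13.4%, and 1.74% and 2.70%. With no minimum, 4 members were called in BEAS-2B at 1 ng/mL and 6 at 5 ng/mL. The 6 include EREG, with 0 against 1 count. From 1 to 5 ng/mL, 3 were called in A549 and 2 in BEAS-2B. The shares were 9.46% and 11.3%, 10.4% and 11.9%, 4.70% and 8.11%, and 7.14% and 6.29%. An FC of at least 1.5 called 1 member in BEAS-2B at 1 ng/mL, and an FC of at least 3 called 0 at 5 ng/mL. The shares were 15.2% and 19.4%, and 2.82% and 4.56%. HBEGF in A549 at 5 ng/mL was also not called once the libraries were thinned to the smallest total. AREG summed with AREGB was not run, since AREGB had no row.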
